A study of Mus musculus with 6 samples.

Results

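Notch signalling lets neighbouring cells instruct each other through contact. A ligand of the Jagged or Delta-like family on one cell binds a Notch receptor on the next, the receptor is cut by ADAM proteases and then by gamma-secretase, and the freed intracellular domain joins the DNA-binding protein RBPJ and a Mastermind co-activator to switch on target genes, above all repressors of the Hes and Hey families. Fringe enzymes such as LFNG add sugars to the receptor and change which ligands it answers to. In the developing kidney Notch receptors, with Notch2 the main one, are known to be needed for progenitors to leave the undifferentiated state and for the proximal part of the nephron to form.

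The genes described here are 10 genes of this pathway out of 27179 entries in the table, taken by name: the ligands Jag1 and Dll1, the receptors Notch1, Notch2 and Notch3, the receptor modifier Lfng and the targets Hes1, Hes5, Hey1 and Heyl. All 10 were found by Entrez Gene ID. RNA was measured in Six2+ nephron progenitors sorted by GFP from mouse kidneys at E16.5. Control cells came from Six2TGC embryos, which carry a transgene that expresses Cre and GFP under Six2 control, and mutant cells from Six2TGC;miR-17~92fl/fl embryos, which carry the same transgene with both alleles of the miR-17~92 microRNA cluster floxed, so that recombination is directed to Six2-expressing cells. Each genotype had 3 libraries, each a pool of 4 embryos, and the labels name no floxed copies in the controls and no strain. The replicate libraries are separate pools. The question is how transcripts of this pathway differ between progenitors with and without the cluster.

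Depths were 27602025 to 36134381 reads per library. The deletion was visible in the table, since Mir17, the first microRNA of the cluster, had 73 reads in all controls together and 2 in all mutants. The host transcript entry Mir17hg, which begins downstream of Mir17, went the other way, from 44.0 ± 9.71 to 212 ± 41.1 RPKM (SD, n = 3 each). Six2 was at 69.9 to 104 RPKM in the controls and 57.0 to 77.0 in the mutants. RPKM, the reads of a gene scaled to its length and to library depth, is a level per length. It allows only a rough comparison between genes. Some Notch genes overlap a gene on the other strand, and the strand setting of the counting is not given. Among tested genes the median log2 fold change, mutant minus control, was -0.125, and it was -0.032 with median-of-ratios scaling. The changes of the tested Notch genes are therefore also given relative to the median of -0.125. Mitochondrial ribosomal RNA took 27.0% to 30.4% of depth in controls and 32.2% to 38.2% in mutants, and with it left out of depth the median was -0.013. Xist, which marks female cells, was at 154, 0.0340 and 0.0278 RPKM in control replicates 1 to 3, against 60.1, 180 and 122 in mutant replicates 1 to 3, so the sex mix of the pools differed between genotypes. Its part in the results below was not tested. In sorted pools, fewer cells that express a gene and less RNA per cell cannot be told apart.

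The microRNAs of the deleted cluster recognise transcripts mainly through bases 2 to 8 of the mature strand, the seed. Their sequences, from RefSeq (GRCm38.p6, chromosome 14, plus strand), are shown because the seeds define which Notch transcripts could pair with them. The 6 strands fall into 4 seed groups, and capitals mark the seed.
miR-17-5p: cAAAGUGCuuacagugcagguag
miR-20a-5p: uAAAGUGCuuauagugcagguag
miR-18a-5p: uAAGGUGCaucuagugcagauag
miR-19a-3p: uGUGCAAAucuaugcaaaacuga
miR-19b-3p: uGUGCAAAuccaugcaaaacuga
miR-92a-3p: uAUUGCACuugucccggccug

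Letters complementary to a whole seed were searched in the longest annotated 3' UTR of a coding transcript of each gene (GENCODE vM21, the same build). Of the 10 Notch genes 1 held such a match and 9 held none, whereas 34.6% of 11714 tested genes with a 3' UTR held at least 1 for any of the 4 seeds. The 3' UTRs of the Notch genes were 368 to 3245 bases long, where the median over tested genes was 1232. The one match lay in Notch2, for miR-18a-5p, a seed matched in 9.41% of tested genes. It is the only site in these genes, so it is shown, 5′ to 3′ as DNA on the plus strand of mm10, with the seed match in capitals; the base after the match is an A, as in the strongest class of microRNA sites.
Notch2, chr3:98148158-98148187: gcctccttctgaacctGCACCTTaatttct
A match is a description of the letters, and pairing in these cells was not measured.

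The levels spread widely within the pathway. In controls Hes1 was highest, at 30.3 ± 4.52 RPKM (SD, n = 3), followed by Notch2 at 24.4 ± 2.11, Hey1 at 18.9 ± 4.02 and Heyl at 13.9 ± 1.61, and each of these neighbours overlapped the next across the 3 libraries. Hes1 lay above 87.2% of tested genes in controls and Notch2 above 83.0%. Jag1 came next at 3.93 ± 0.570 RPKM, below every control value of Heyl. Notch3 at 2.79 ± 0.294 and Notch1 at 2.67 ± 0.0709 overlapped each other, and Dll1 at 0.753 ± 0.179 lay below both. Lfng, at 0.376 ± 0.199, and Hes5, at 0.00931 ± 0.0161, closed the order without overlap. In mutants Notch2 was highest, then Hey1, then Hes1, and the ranges of these 3 genes overlapped from one neighbour to the next.

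Of the 10 genes 8 averaged 0.5 RPKM or more and entered the test, limma on log2(RPKM + 0.5) with Benjamini-Hochberg adjustment over all 13463 tested genes. Of these 8, 0 passed at an adjusted p of 0.05, where 3.13% of all tested genes did; 1 had an unadjusted p below 0.05, where 19.6% of all tested genes did, and voom on recovered reads called 0 as well. In 1 of the 8, Hes1, the groups did not overlap, where this held for 25.1% of all tested genes. The 8 log2 fold changes, with 4 above and 4 below 0, ran from -0.46 to 0.33, with a median of 0.02. Their standard errors ran from 0.14 to 0.25, so the 95% intervals below show which changes these 6 libraries leave possible. Relative to the median of all tested genes, 5 of the 8 lay above it. The changes were then 0.46 for Dll1, 0.36 for Jag1, 0.36 for Hey1, 0.28 for Notch2 and 0.01 for Notch1. They were -0.11 for Heyl, -0.19 for Notch3 and -0.34 for Hes1.

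**Figure D1:**
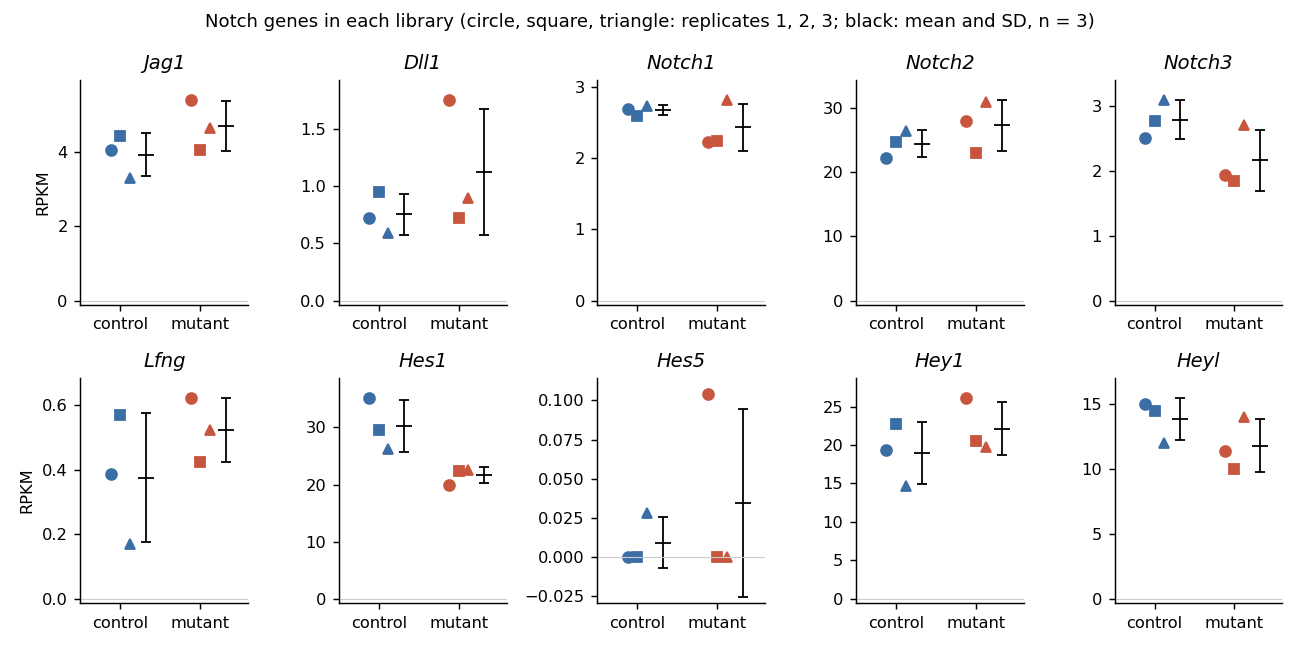
RPKM of each of the 10 Notch genes in the 3 control and 3 mutant libraries, 1 panel per gene with its own linear axis; markers give the replicate number and the black bar the mean with SD (n = 3). Hes1 is the gene whose groups are apart, with controls at 26.2 to 35.1 RPKM and mutants at 19.99 to 22.5.

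Jag1 (chromosome 2, 137081451 to 137116520, mm10) encodes Jagged1, the ligand whose loss causes Alagille syndrome in humans and which is made in the renal vesicle, the first epithelial structure of the nephron. It was at 4.05, 4.43 and 3.31 RPKM in control replicates 1 to 3, against 5.40, 4.05 and 4.64 in mutant replicates 1 to 3. The groups overlapped, since mutant replicate 2 lay among the controls. In limma it had a log2 fold change of 0.23 (standard error 0.17, 95% interval -0.14 to 0.60, adjusted p 0.452).

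Dll1 (chromosome 17, 15367354 to 15376932) encodes Delta-like 1, the other main ligand of the early nephron. It was at 0.722, 0.945 and 0.591 RPKM in controls, against 1.75, 0.724 and 0.898 in mutants. Mutant replicate 1 stood well above the other 5 libraries, which overlapped. Its log2 fold change of 0.33 had a 95% interval of -0.22 to 0.88 (limma adjusted p 0.464), and it was 0.07 without mutant replicate 1. Dll1 rested on 57 to 182 reads per library, and 17.9% of its 31-base words lie in A930024N18Rik, an overlapping gene on the other strand. No source used here gives the strand setting of the counting, and reads of the pair may be mixed. Jag1 exceeded Dll1 in all 6 libraries, by 3.08-fold in mutant replicate 1 and by 4.69-fold to 5.61-fold in the other 5.

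Notch2 (chromosome 3, 98013538 to 98150367) was the leading receptor transcript. It was at 22.1, 24.7 and 26.3 RPKM in controls, against 28.0, 23.0 and 30.8 in mutants, with mutant replicate 2 among the controls. The log2 fold change was 0.15 with a 95% interval of -0.16 to 0.46 (limma adjusted p 0.555). That interval holds both a small fall and a rise of 0.46, on 6711 to 9362 reads per library, so counting error was not what limited it. This is the gene with the miR-18a-5p match shown above.

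Notch1 (chromosome 2, 26457902 to 26503822), the receptor best known from blood vessels and T cells, was at 2.68, 2.59 and 2.72 RPKM in controls, against 2.23, 2.24 and 2.81 in mutants. Mutant replicates 1 and 2 lay below all controls and mutant replicate 3 above them. Its log2 fold change was -0.12 (95% interval -0.48 to 0.24, limma adjusted p 0.697), 0.01 above the median of all tested genes. Notch3 (chromosome 17, 32120820 to 32166896), a receptor of pericytes and vascular smooth muscle, was at 2.50, 2.77 and 3.09 RPKM in controls, against 1.93, 1.84 and 2.70 in mutants. Here mutant replicate 3 lay inside the control range and the other mutants lay below it. Its log2 fold change was -0.32 (95% interval -0.72 to 0.08, limma adjusted p 0.351).

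Notch1 and Notch3 each overlap an annotated gene on the other strand, with which they share 7.1% and 5.32% of their 31-base words. The 13 endothelial genes summed to 4.40 to 6.84 RPKM in controls and 6.83 to 7.33 in mutants, with Pecam1 at 0.161 to 0.339 and 0.2505 to 0.370 and Cdh5 at 0.223 to 0.409 and 0.282 to 0.818. The 12 genes of mural cells, the pericytes and smooth muscle around vessels, summed to 27.0 to 65.0 RPKM in controls and 26.3 to 50.5 in mutants, with none at 0 in all libraries. Of the 8 tested, 1 was lower in every mutant than in every control, where 18.0% of all tested genes were. Another 1 was higher, where 7.06% were. In limma 1 of the 8, Des, passed, lower in mutants, where 1.81% of all tested genes did. The defining pericyte gene Rgs5 was at 0.0563 to 0.337 RPKM in controls and 0.298 to 0.581 in mutants. Their part in the receptor values was not tested.

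As a share of the summed RPKM of the 3 receptors, Notch2 made up 81.0%, 82.2% and 81.9% in controls, against 87.1%, 85.0% and 84.8% in mutants. These shares do not depend on library depth or on scaling by a single factor per library, and the groups did not overlap. They rest on the deposited values only and were not computed after quantile normalization. They were computed after the values of the genes were known, and no test was run on them; an exact test of 3 against 3 libraries cannot give a p below 0.1.

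Lfng (chromosome 5, 140607341 to 140615545) encodes Lunatic fringe, which glycosylates Notch receptors. It was at 0.386, 0.569 and 0.171 RPKM in controls, against 0.622, 0.425 and 0.523 in mutants, from 11 to 47 reads per library, and lay under the filter with a mean of 0.450. Control replicate 3 was lowest, and the groups overlapped (exact two-sided permutation test, p = 0.4, where the smallest possible with 3 against 3 libraries is 0.1). The ratio of read rates, mutant over control, was 1.34 with an exact 95% interval of 0.996 to 1.81 that covers counting error only.

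Hes1 (chromosome 16, 30065357 to 30067796), the repressor that is the most widely used readout of Notch activity, was lower in all 3 mutant libraries. It was at 35.1, 29.5 and 26.2 RPKM in control replicates 1 to 3, against 19.99, 22.4 and 22.5 in mutant replicates 1 to 3. The lowest control stood above the highest mutant, and the mutants lay close together where the controls spread. The mean was 21.7 ± 1.45 RPKM in mutants against 30.3 ± 4.52 in controls (SD, n = 3 each), a ratio of 0.716. On the log2 scale the change was -0.46 (standard error 0.14, 95% interval -0.77 to -0.16). It did not pass the adjustment (unadjusted p 0.00623, limma adjusted p 0.107). Relative to the median of all tested genes it was -0.34.

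The Hes1 value moved with scaling and with single controls. With median-of-ratios scaling the log2 fold change was -0.36 (limma adjusted p 0.189), without control replicate 1 it was -0.35 (0.392), and without control replicate 3 it was -0.56 and passed (0.0244); the adjusted p ran from 0.0244 to 0.392 over 18 alternatives. Hes1 held 878 to 1545 reads per library and shared 0% of its 31-base words with other genes. The 16 listed nephron progenitor markers summed to 817 to 882 RPKM in controls and 649 to 775 in mutants. Of the 14 tested, 4 were lower in every mutant than in every control, where 18.0% of all tested genes were, and 1 was higher, where 7.06% were. In limma 1 of the 14, Meox1, passed, lower, where 1.81% of all tested genes did. Their part in the Hes1 value was not tested.

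Hey1 (chromosome 3, 8663359 to 8667038), a target repressor that also answers to BMP signalling, was at 19.3, 22.7 and 14.7 RPKM in controls, against 26.1, 20.6 and 19.7 in mutants. Control replicate 2 lay above mutant replicates 2 and 3. The log2 fold change was 0.23 with a 95% interval of -0.15 to 0.61 (limma adjusted p 0.462), and it was 0.07 without control replicate 3 and 0.11 without mutant replicate 1. Heyl (chromosome 4, 123233556 to 123249870), a Hey-family repressor, was at 15.0, 14.5 and 12.0 RPKM in controls, against 11.4, 10.01 and 14.01 in mutants. Mutant replicate 3 lay inside the control range. For Heyl the log2 fold change was -0.23 with a 95% interval of -0.57 to 0.11 (limma adjusted p 0.420).

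**Figure D2:**
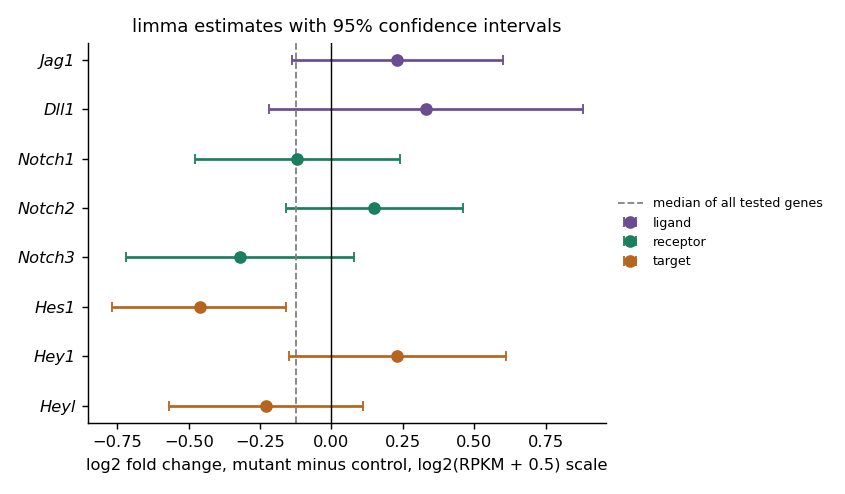
limma log2 fold changes (mutant minus control, on the log2(RPKM + 0.5) scale) of the 8 tested Notch genes with 95% confidence intervals, coloured by role; the dashed line is the median of all tested genes, -0.125. Of the 8 intervals only that of Hes1, -0.77 to -0.16, leaves out 0, before adjustment over all genes.

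Among the targets, Hes1 made up 50.5%, 44.2% and 49.4% of the summed RPKM of the 4 targets in control replicates 1 to 3, against 34.7%, 42.3% and 40.04% in mutant replicates 1 to 3. Hey1 made up 27.8%, 34.1% and 27.8% in controls, against 45.3%, 38.8% and 35.1% in mutants. Neither share overlapped between genotypes, although the closest pair of Hey1 shares, 34.1% and 35.1%, lay near each other. Heyl held 21.6% to 22.7% in controls and 18.9% to 24.9% in mutants, which overlapped. The ratio of Hey1 to Hes1 was 0.551, 0.772 and 0.563 in controls, against 1.30, 0.916 and 0.876 in mutants. As with the receptors, these shares were chosen with the values known and were not tested.

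**Figure D3:**
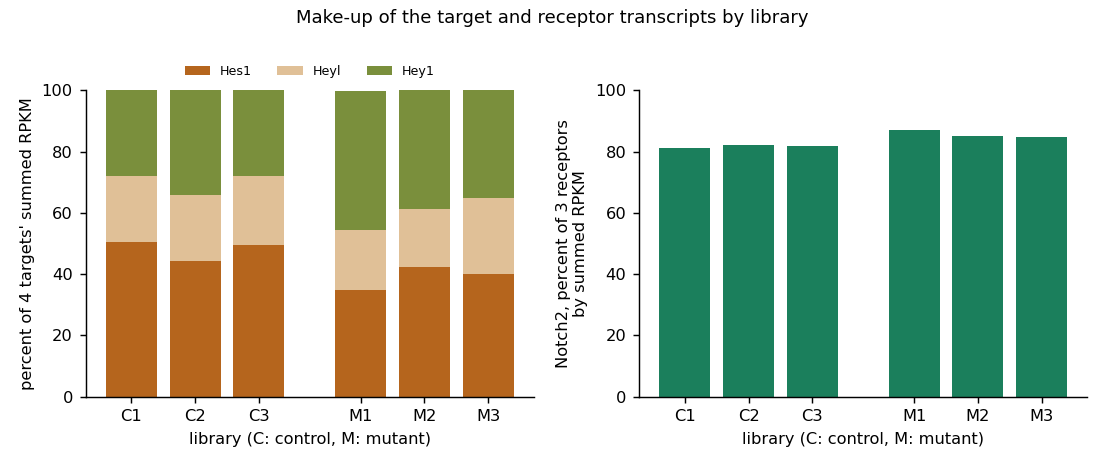
Left, Hes1, Heyl and Hey1 as a percent of the summed RPKM of the 4 targets in each library (Hes5 is too low to see); right, Notch2 as a percent of the summed RPKM of the 3 receptors. Bars are single libraries, controls C1 to C3 and mutants M1 to M3. The Hes1 share is 44.2% to 50.5% in controls and 34.7% to 42.3% in mutants, and the Notch2 share 81.0% to 82.2% and 84.8% to 87.1%.

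Hes5 (chromosome 4, 154960626 to 154962372), a target known for strong induction by Notch in neural progenitors and present in forming nephrons, was close to absent from these libraries. It had 0, 0 and 1 read in controls, against 4, 0 and 0 in mutants. The ratio of read rates was 4.38 with an exact 95% interval of 0.433 to 216, so no direction can be read at this depth, and the exact two-sided permutation test gave p = 1. Of its 31-base words 25.7% lie in Gm20421, an overlapping gene on the other strand.

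The promoters of the 2 lowest members, Lfng and Hes5, are shown because they carry the letters that RBPJ binds. The motif TGGGAA was searched on both strands (TTCCCA on the other) in RefSeq promoters of GRCm38.p6, 250 bases before to 50 after a gene's start. Promoters were matched for 7 of the 10 genes: Jag1, Dll1, Notch1, Notch2, Notch3, Lfng and Hes5. These gave 8 windows, since Dll1 had 2. Of these 7, 2 held the motif, each with 2 copies, where 25.6% of 32851 promoters held at least 1 and 3.79% at least 2. In Lfng the first bases of the copies lie 135 and 108 bases before the start that sets the window, and in Hes5 226 and 82. For Lfng that start is the first base of the gene's span given above, whereas for Hes5 it is 154960923, which lies 297 bases inside the span, so both Hes5 copies fall within the annotated gene. In both the copy farther from the start reads TTCCCA and the nearer one TGGGAA. Capitals mark the motif, and both genes lie on the plus strand.
Lfng, chr5:140607091-140607390: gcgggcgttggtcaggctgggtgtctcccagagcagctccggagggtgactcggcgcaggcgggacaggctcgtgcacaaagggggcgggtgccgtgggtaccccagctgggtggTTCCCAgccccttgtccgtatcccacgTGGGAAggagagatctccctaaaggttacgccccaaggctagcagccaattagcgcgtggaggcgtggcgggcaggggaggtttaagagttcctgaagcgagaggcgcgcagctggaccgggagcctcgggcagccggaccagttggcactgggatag
Hes5, chr4:154960673-154960972: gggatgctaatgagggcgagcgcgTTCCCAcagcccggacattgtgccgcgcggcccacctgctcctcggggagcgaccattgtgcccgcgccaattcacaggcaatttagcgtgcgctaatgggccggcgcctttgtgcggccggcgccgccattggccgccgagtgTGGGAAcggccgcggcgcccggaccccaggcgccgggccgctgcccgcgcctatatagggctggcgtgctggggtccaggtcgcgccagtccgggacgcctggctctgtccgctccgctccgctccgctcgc

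Letters that Hes and Hey repressors are known to bind were also counted in the promoters of these 7 genes, on both strands. For Dll1 a match in either window counted, whereas the shares over all promoters are per single promoter. CACNAG was in 5 of the 7 (42.5% of all promoters), CACGCG in 4 (9.27%) and CACGTG, in Lfng, in 1 (7.15%), where it overlaps the second RBPJ motif. A match is not a binding site, and no binding was measured.

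Among the 6 libraries, mutant replicate 1 and control replicate 3 stood at the ends most often. Mutant replicate 1 held the highest value of all 6 libraries for 5 genes, Jag1, Dll1, Lfng, Hes5 and Hey1, and the lowest for Notch1 and Hes1. Control replicate 3 held the lowest value for 4 genes, Jag1, Dll1, Lfng and Hey1. The 20 listed markers of commitment and of the renal vesicle followed this order at its ends, with a summed level of 240, 256 and 230 RPKM in control replicates 1 to 3, against 289, 240 and 275 in mutant replicates 1 to 3. Of the 18 tested, 7 were higher in every mutant than in every control, where 7.06% of all tested genes were, and 0 were lower, where 18.0% were. In limma 2 of the 18, Cdh6 and Emx2, passed, both higher, where 1.32% of all tested genes did. Lhx1, a transcription factor of the renal vesicle, was at 1.58, 2.07 and 1.84 RPKM in controls, against 3.45, 2.54 and 2.66 in mutants. It did not pass (log2 fold change 0.53, limma adjusted p 0.146). The 11 podocyte genes were lowest in control replicate 3 too but highest in control replicate 2. They summed to 196, 225 and 135 RPKM in controls 1 to 3 and 154, 149 and 154 in mutants 1 to 3. Of the 8 tested, 2 were lower in every mutant than in every control (18.0% of all tested genes) and 1 higher (7.06%). In limma 0 of the 8 passed, where 3.13% of all tested genes did. The 15 genes of later tubules summed to 14.4 to 16.1 RPKM in controls and 16.9 to 31.9 in mutants. Of the 5 tested, 2 were higher in every mutant than in every control (7.06% of all tested genes) and 0 lower (18.0%). In limma 1 of the 5, Slc12a1, passed, higher, where 1.32% of all tested genes did. The 13 interstitial genes summed to 79.9 RPKM in control replicate 3 and to 146 and 213 in the other controls, against 153 to 258 in the mutants. The 13 macrophage and leukocyte genes summed to 6.28 to 10.5 RPKM in controls and 17.2 to 19.0 in mutants. Of the 6 tested, 4 were higher in every mutant than in every control (7.06% of all tested genes) and 0 lower (18.0%). In limma 3 of the 6, Ctss, Fcer1g and Tyrobp, passed, all higher, where 1.32% of all tested genes did. Whether these cells or stages carry any of the Notch gene differences was not tested.

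The rest of the pathway was read from a list of 69 further genes by role, of which 53 entered the test. Of these 53, 2 rose (1.32% of all tested genes did), 1 fell (1.81%) and 50 did not pass, and the list median was -0.18 beside -0.125 for all tested genes. With mitochondrial ribosomal RNA left out of depth the list median was -0.07 beside -0.013. With voom on recovered reads 6 passed. The 3 that passed were Aph1b, Bhlhe40 and Hes6.

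Aph1b (chromosome 9, 66775202 to 66797345) encodes a subunit of gamma-secretase, the enzyme that frees the Notch intracellular domain. It was at 0.982, 0.929 and 0.648 RPKM in controls, against 3.47, 2.88 and 2.53 in mutants, so every mutant stood far above every control. Its log2 fold change of 1.35 (standard error 0.19, limma adjusted p 0.00281) passed the test, as it did in all 18 alternatives. Aph1b shares 24.7% of its 31-base words with its neighbouring copy Aph1c, so the split of reads between them is uncertain. Summed over each genotype, controls first, Aph1b had 368 and 1162 reads and Aph1c, named after its values were seen, 101 and 153. Aph1a, Ncstn, Psenen and Psen2, which also encode subunits of the enzyme, did not pass, with log2 fold changes from 0.01 to 0.19.

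The 3' UTR of Aph1b held 3 seed matches, for miR-18a-5p, miR-19a/b-3p and miR-92a-3p, the first and second sharing letters. Of tested genes with a 3' UTR, 9.41%, 13.9% and 7.89% held a match for these seeds, in that order. At 4011 bases the Aph1b 3' UTR is longer than that of any of the 10 Notch genes, where the median over tested genes was 1232. Aph1b is described because it passed the test. The matches are shown beside that of Notch2, as DNA on the minus strand of mm10, with the seed match in capitals.
Aph1b and miR-18a-5p, chr9:66777045-66777074: ttccgtagcctgctttGCACCTTacctagg
Aph1b and miR-19a/b-3p, chr9:66777048-66777077: tgtttccgtagcctgcTTTGCACcttacct
Aph1b and miR-92a-3p, chr9:66778505-66778534: ttggaagaaattagcaGTGCAATttctttg
The site in Notch2 and the first of these carry the same letters and the same following A. Notch2 had a log2 fold change of 0.15 and Aph1b, which holds further matches, 1.35. Any part of the sites in these changes was not tested.

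Hes6 (chromosome 1, 91411483 to 91414038) encodes a Hes-family protein known to oppose HES1. It fell from 12.0, 14.03 and 10.7 RPKM in the controls to 7.15, 7.14 and 8.33 in the mutants, without overlap (log2 fold change -0.66, standard error 0.15, limma adjusted p 0.0344). Its call was lost in 9 of 18 alternatives, each time with the same direction, among them leaving out any 1 library other than control replicate 3 (adjusted p 0.0564 to 0.156), the replicate block (0.055) and no filter (0.0908). Its 3' UTR held 0 seed matches. Bhlhe40 (chromosome 6, 108660629 to 108666925), a Hes-related repressor known for roles in the circadian clock and in low oxygen, rose from 1.24, 2.12 and 1.44 RPKM to 4.78, 4.57 and 3.95 (log2 fold change 1.25, standard error 0.19, limma adjusted p 0.00403; 0.0527 with no filter). Its 3' UTR also held 0 matches. Hey2, the remaining Hey gene, overlapped between genotypes (log2 fold change 0.12).

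In the nuclear complex no gene passed. All 8 tested genes of that list had log2 fold changes below 0 in the deposited values, from -0.57 to -0.11 with a median of -0.22, and 7 of 8 with quantile normalization or with mitochondrial ribosomal RNA left out of depth. Relative to the median of all tested genes 7 lay below it. Kat2b, an acetyltransferase recruited by the Notch complex, had -0.57 (limma adjusted p 0.0919), and Rbpj, the DNA-binding partner, had -0.31 (0.238), at 19.8 to 21.4 RPKM in controls and 14.3 to 17.9 in mutants. Of 13 co-repressor genes 12 lay below 0, with a median of -0.27 and Spen, a repressor scaffold that binds RBPJ, at -0.53 (0.124). Of 13 inhibitors and turnover genes 11 lay below 0, with Dtx1, a Deltex ubiquitin ligase that is itself a Notch target, at -0.60 (0.121), and Nrarp, a target that feeds back on the Notch complex, at -0.17 (0.722). Of 4 ligand endocytosis genes 4 lay below 0, with Mib1, the ubiquitin ligase that activates ligands, at -0.44 (0.109). Adam10, the main protease of the first cut, had -0.38 (0.157). Of the glycosylation genes Rfng, another fringe, had -0.27 (0.438). The median of all genes is itself below 0, which these counts do not take off. Over the 53 genes 41 lay below 0 and 33 below that median, against 34 below 0 with quantile normalization and, with mitochondrial ribosomal RNA left out of depth, 35 of 58. The co-repressors below 0 were 10 to 11 of 13 and the inhibitors and turnover genes 7 to 9 of 13 under the 3 other scalings.

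**Figure D4:**
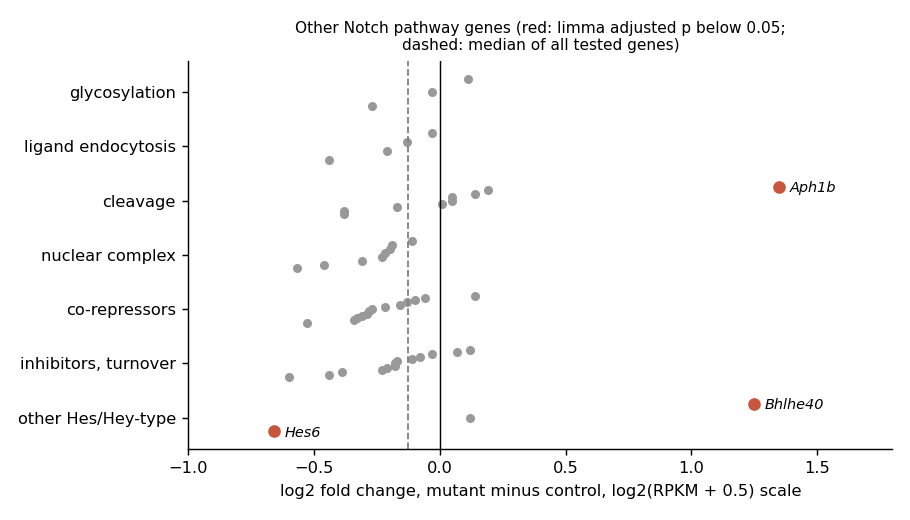
log2 fold changes (mutant minus control, on the log2(RPKM + 0.5) scale) of the 53 tested Notch pathway genes outside the 10, grouped by role; each point is a gene, red points pass at a limma adjusted p of 0.05, and the dashed line is the median of all tested genes. Aph1b at 1.35 and Bhlhe40 at 1.25 stand to the right, Hes6 at -0.66 to the left, and all 8 nuclear complex genes lie left of 0 in the deposited values (7 with quantile normalization).

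The remaining ligands and the fourth receptor lay under the filter in these cells. Jag2 was at 0.0444 to 0.161 RPKM, Dll3 at 0 to 0.0306 and Dll4, the endothelial ligand, at 0 to 0.0412, each with overlapping groups. Dlk1, the highest of the remaining ligands at 0.192 to 0.602 RPKM, Dner and Cntn1 overlapped too. Dlk2, named after its values were seen, did not overlap. It had 1, 2 and 3 reads in controls and 0 in every mutant (exact two-sided permutation test, p = 0.1). Notch4, an endothelial receptor, was at 0.380 to 0.419 RPKM in controls and 0.252 to 0.425 in mutants. Mfng, Manic fringe, was named after its values were seen. It had 1 read in each control library and 7, 5 and 8 reads in the mutants, a ratio of read rates of 7.30 with an exact 95% interval of 2.16 to 38.3 for counting error alone (exact two-sided permutation test, p = 0.1, the smallest that 3 against 3 libraries allow). At 0.255 ± 0.0600 RPKM in mutants (SD, n = 3) it remained the lowest of the 3 fringe genes, below Lfng at 0.524 ± 0.0983 and Rfng at 2.88 ± 0.408.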

How the data were processed

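The 6 libraries of nephron progenitor RNA, 3 per genotype, were read as paired 100-base reads after Ovation RNA-Seq System V2 amplification, per the labels' protocols. The authors deposited 1 table of RPKM values on mm10, with FastQC and limma named per the submitters' processing notes and the word subread in the columns per the file headers; counter, annotation and strand setting: not given in the sources used here. Entrez IDs were matched to symbols and coordinates of RefSeq GRCm38.p6 (25275 of 27179 entries). The steps between RPKM values gave depths and whole reads, with reads taken as whole within 0.01 of a read for all 13463 tested genes; whether a unit is a read or a pair is not known.

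The fit was limma 3.58.1 (R 4.3.3) on log2(RPKM + 0.5), over genes averaging 0.5 RPKM or more, with a mean-variance trend and two-sided Benjamini-Hochberg adjusted p-values; fold changes on this scale understate those of low genes. Intervals on read ratios are exact binomial (95%) and cover counting error only. Read recovery, the fit and the site search were tested on simulated data. Sequences were searched with Python 3.11.15. Named genes are the 10 members, other pathway genes that passed and the gene of lowest p in each role group, with further genes, such as markers that passed, named after their values were seen. Members and lists were chosen with earlier results of these data known. Alternatives were the pseudocount, filter, scaling, variance model, sample weights, replicate block, voom on recovered reads and leaving out each library.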

Additional observations from a re-analysis of the deposited data

How the results depend on the processing

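Direction was kept by all 8 tested Notch genes under each of the 18 alternatives in which they were tested, and none of them passed apart from Hes1 without control replicate 3. The count of Notch genes called was 0 in every alternative other than that one, and so ran from 0 to 1 over the fits that leave out a library. Their median log2 fold change was 0.02, and 0.27 with depth without mitochondrial ribosomal RNA, where Lfng entered the test, and -0.12 with a filter of at least 1 RPKM, where Dll1 dropped out; it ran from -0.08 to 0.10 over the fits that leave out a library. The other pathway genes called numbered 3, with 1 under no filter and 6 with voom on recovered reads, which added Kat2b, Spen and Aak1; leaving out a library gave 2 to 4. Over all tested genes 422 were called, 178 higher and 244 lower, with 143 under no filter, 686 with voom and 148 to 1083 on leaving out a library, the highest without control replicate 3 and the lowest without mutant replicate 2. With median-of-ratios scaling the split was 262 higher and 171 lower. With the replicate number as a block 393 genes, 0 Notch genes and 2 other pathway genes were called. Same-numbered libraries deviated together with correlations of 0.0526, 0.157 and 0.153, and each library correlated best with its own number, a hint from the data, not from the design; the labels do not say what a number marks, so the libraries are not treated as pairs. Depth limits Lfng and Hes5, at 11 to 47 and 0 to 4 reads per library.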
